A study of Mus musculus with 6 samples.

Results

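Expression was examined for 7 genes of surface proteins by which thymocytes and T cells are staged, *Thy1*, *Cd24a*, *Spn* and the Ly6 genes *Ly6d*, *Ly6e*, *Ly6a* and *Ly6c1*. They were taken by symbol from the 23183 genes of the expression files, and 7 of 7 were found. The files hold RNA-seq of DP (CD4+CD8+) thymocytes, the stage at which thymocytes are tested for positive and negative selection. In all there were 6 libraries of C57BL/6 mice at 6 weeks of age, 3 named WT and 3 named NSrp70-cKO. WT mice carried the floxed allele without Cre (NSRP1f/f), and cKO mice carried the same floxed allele with the CD4Cre transgene (Nsrp1f/fCD4Cre). The CD4 promoter drives Cre from the late DN and DP stages on, so *Nsrp1*, which encodes the splicing factor NSrp70, is deleted shortly before or in DP cells and in the T cells that follow. The comparison of the genotypes asks which transcripts differ in DP thymocytes when *Nsrp1* is targeted in this way. Since the labels do not say whether libraries came from separate animals, the p-values measure the spread between these libraries, which may be technical.

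Most of these proteins have no membrane-spanning part and are held in the outer leaflet of the membrane by a glycosylphosphatidylinositol (GPI) anchor, which is built in the endoplasmic reticulum and attached as a unit. Thy-1 is an immunoglobulin-family protein and among the most abundant proteins of mouse thymocytes, and CD24 (heat-stable antigen) is a short, heavily glycosylated peptide that is high on immature thymocytes and is lost as they mature. Ly6 proteins are small folds held together by disulfide bonds. Of these, Ly6d (ThB) and Ly6e (TSA-1, Sca-2) are known from immature thymocytes, while Ly6a (Sca-1) and Ly6c rise on mature and activated T cells. CD43, the product of *Spn*, is the exception in the set, a transmembrane sialomucin whose tail binds the ERM proteins of the cell cortex.

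The opening 300 coding bases of the 2 Ly6 genes that were high in these cells are shown because *Ly6d* carried the largest difference of the set and *Ly6e*, its relative on the same chromosome, a much smaller one. They are spliced sequences of GENCODE M21 on GRCm38, read 5′ to 3′, with in-frame cysteine codons in capitals, the residues that form the disulfide bonds of the Ly6 fold. The *Ly6d* stretch lies on the minus strand at chr15:74762440-74763560 and the *Ly6e* stretch on the plus strand at chr15:74957808-74958602, in the coding parts of exons with introns left out.
Ly6d: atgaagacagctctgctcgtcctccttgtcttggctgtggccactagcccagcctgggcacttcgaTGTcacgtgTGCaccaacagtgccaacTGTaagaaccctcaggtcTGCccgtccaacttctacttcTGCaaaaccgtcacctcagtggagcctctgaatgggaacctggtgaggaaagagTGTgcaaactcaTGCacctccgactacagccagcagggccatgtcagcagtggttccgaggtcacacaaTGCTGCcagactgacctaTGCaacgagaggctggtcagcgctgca
Ly6e: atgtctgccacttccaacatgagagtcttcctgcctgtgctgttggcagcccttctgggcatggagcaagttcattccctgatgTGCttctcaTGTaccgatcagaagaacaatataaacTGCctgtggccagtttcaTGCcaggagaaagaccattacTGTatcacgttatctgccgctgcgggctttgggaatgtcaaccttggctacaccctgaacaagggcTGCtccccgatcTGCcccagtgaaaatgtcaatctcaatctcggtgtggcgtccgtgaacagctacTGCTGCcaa
The stretches hold 10 and 9 cysteine codons, of 11 and 10 in whole coding sequences of 384 and 411 bases. The aligned coding sequences were identical at 52.5% of the positions, and no stretch of 100 bases of either transcript was found in a transcript of another gene.

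*Ly6c1* is shown with its neighbour *Ly6c2*, which is not in the set, because the 2 genes are nearly the same sequence and reads of one can be counted for the other. The lines give the opening 150 coding bases on the minus strand, which cross 1 intron, at chr15:75047390-75048511 for *Ly6c1* and chr15:75110548-75111667 for *Ly6c2*, with the differing bases in capitals.
Ly6c1: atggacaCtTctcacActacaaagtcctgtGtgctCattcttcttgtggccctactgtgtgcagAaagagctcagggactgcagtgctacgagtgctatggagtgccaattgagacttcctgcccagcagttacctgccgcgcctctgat
Ly6c2: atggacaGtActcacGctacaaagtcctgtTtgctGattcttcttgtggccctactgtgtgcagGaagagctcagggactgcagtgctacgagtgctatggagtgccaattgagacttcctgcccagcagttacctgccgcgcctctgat
Of these 150 bases 6 differ, and over the whole coding sequence 9 of 396. Of the 745 stretches of 100 bases in the *Ly6c1* transcript, 114 also occur in *Ly6c2*, so the split of reads between these genes is uncertain. *Ly6a* was 82.0% identical to *Ly6c1* in its coding sequence but shared no stretch of 100 bases with another gene.

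The libraries differed in ways that bear on every comparison of the genotypes. *Nsrp1*, listed under its older symbol *Ccdc55*, had 20.17, 20.74 and 21.12 FPKM (fragments per kilobase of transcript, normalized to the mapped fragments) in WT and 17.70, 15.79 and 15.002 in cKO, lower in cKO without overlap. The cKO mean was 0.78 times the WT mean (log2 fold change -0.34), so most of the RNA listed for this gene remained. The estimated depth was 20.8 to 20.9 M fragments in WT and 13.2, 20.7 and 17.4 M in cKO 1, 2 and 3. The SD of the log2 difference between libraries of one genotype was 0.137 to 0.163 in WT and 0.295 to 0.409 in cKO, so the WT libraries were the more alike. For pairs of libraries, chi-square per degree of freedom against counting noise was 1.51 to 1.61 in WT and 27.2 to 62.0 in cKO. The WT spread was thus not far above counting noise, and limma pools it with the cKO spread. The FPKM of all genes summed to 521296 to 531517 in WT and to 701396 to 850548 in cKO, with the lowest cKO sum in cKO 2. The Y-linked gene *Ddx3y* was at 0 in WT throughout and at 26.2 to 35.0 FPKM in cKO, while *Xist* fell from 69.8 to 72.0 in WT to 4.07 to 5.44 in cKO, so genotype and sex of the animals cannot be told apart. As a look at the DP label, *Cd4* (486 to 487 FPKM in WT and 566 to 723 in cKO), *Cd8a* (680 to 688 and 1003 to 1163) and *Rag1* (964 to 983 and 1211 to 1671) were high in both genotypes. These genes were chosen here for that purpose, and their RNA in bulk does not show what share of the cells was DP.

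Of the 7 genes, 5 were higher in cKO, 0 were lower (also 0 at an unadjusted p under 0.05) and 2 did not pass the test, limma on log2(FPKM + 1) after division by size factors, at an adjusted p under 0.05. All 7 passed the filter of 1 FPKM in 3 libraries, as did 10326 genes. Among all genes tested 35.8% were called higher and 29.8% lower, and in 39.2% all cKO libraries lay above all WT libraries, as they did for the same 5 genes of the set. The median log2 fold change was 0.43 over the set and 0.039 over all genes tested. With 65.5% of all genes called in one direction or the other, a call by itself says little about a gene of the set. The count of higher calls in the set fell to 1 when all libraries were brought to one FPKM total, where 8.74% of all genes were called higher, and to 2 under quantile normalization, where 33.3% were. Bringing the libraries to one total moved the median of all genes to -0.45, and *Thy1*, *Spn*, *Ly6e* and *Cd24a* then stood 0.55, 0.46, 0.32 and 0.17 above that median on the log2 scale, against 0.62, 0.52, 0.39 and 0.24 above it in the fit with size factors. Of 8 housekeeping genes kept as a check, 6 were higher and 1 lower, with a median of 0.46. The order of the 2 medians depended on the scaling. At the same total the median was -0.13 for the set and -0.095 for the housekeeping genes, under quantile normalization 0.13 and 0.058, and after adjustment for base composition (GC) and length of the transcript 0.64 and 0.33. In bulk samples of this kind, more RNA of a gene per cell and more cells that express it cannot be told apart.

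**Figure D1:**
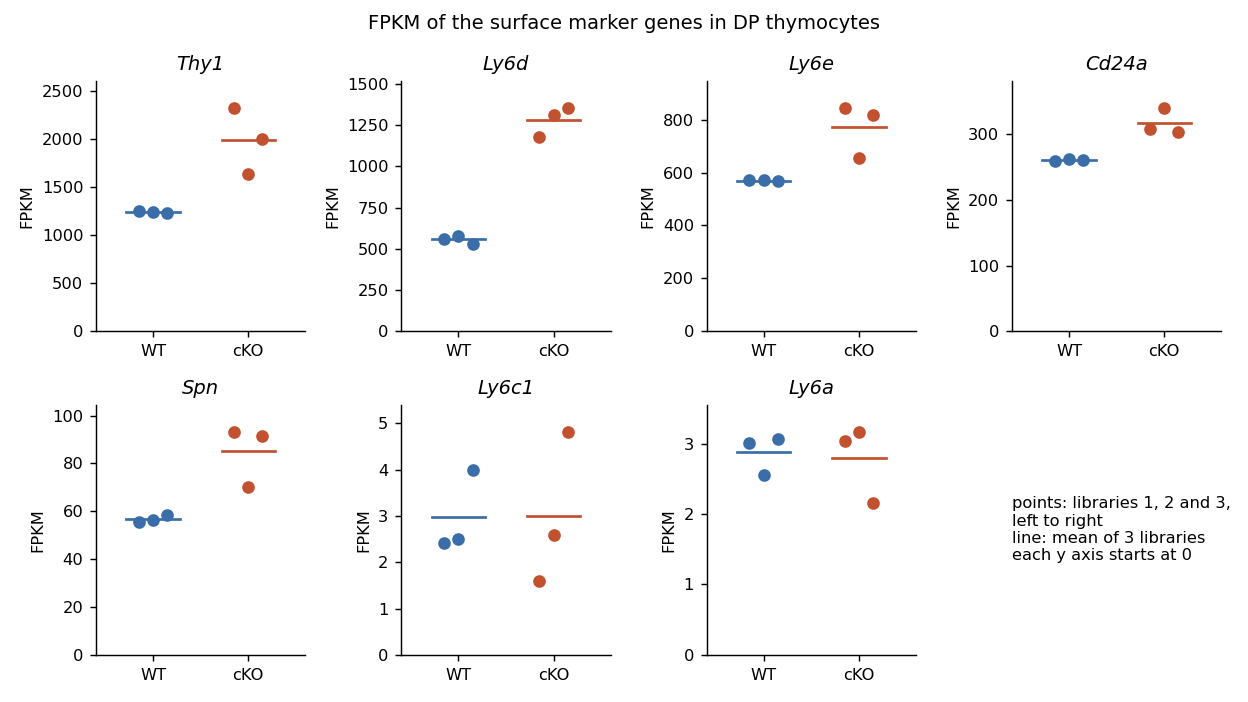
FPKM of each gene of the set in the 3 WT (blue) and 3 cKO (red) libraries, with a line at the group mean and a y axis from 0 in every panel. The cKO libraries lay above all WT libraries for *Thy1*, *Ly6d*, *Ly6e*, *Cd24a* and *Spn*, while the groups overlapped for *Ly6c1* and *Ly6a*.

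The mean levels in WT ran from 2.88 FPKM for *Ly6a* to 1242 for *Thy1*. *Thy1* was the 65th of all 23183 genes by WT level and *Ly6e* and *Ly6d* followed at ranks 133 and 136, with ranges that overlapped in WT. *Cd24a* ranked 246 and *Spn* 1526, each clear of its neighbours in the order. *Ly6c1* and *Ly6a* came last, at ranks 8963 and 9018, and could not be ordered between themselves in either genotype. In cKO the order changed at 1 place, as *Ly6d* rose to rank 103 and *Ly6e* stood at 147, without overlap between the 2 genes.

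*Ly6d*, whose protein marks lymphoid progenitors biased to the B lineage and is also found on thymocytes, differed most. It measured 560, 577 and 531 FPKM in the WT libraries and 1180, 1314 and 1355 in the cKO libraries. Every cKO library was at least 2.12 times the WT mean, and the groups lay far apart. The mean rose from 556 to 1283 ± 91.3 FPKM (SD, n = 3), which is 1.20 on the log2 scale (SE 0.102, 95% interval 0.96 to 1.44, adjusted p = 0.000178 from limma) and rank 172 from the top among 10326 genes. *Ly6d* was called higher in 16 of 16 other settings, but its log2 fold change fell to 0.64 at the same FPKM total, 0.53 under quantile normalization and 0.72 after adjustment for GC and length. Its transcript is the shortest of the set at 744 bases. Of 9 B cell genes, 1 passed the filter, *Cd79b* (log2 fold change 0.52, adjusted p = 0.0164 from limma), and *Cd79a* stayed under 1 FPKM in all 6 libraries. The B cell genes summed to 23.4 to 25.2 FPKM in WT and 27.4 to 41.0 in cKO. Most of this was *Cd79b* (means 22.4 and 33.0), and the other 8 genes were under 1 FPKM in all libraries. The part of such cells in the level of *Ly6d* was not tested.

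*Ly6e*, a GPI-anchored protein of immature thymocytes that also limits the entry of some viruses, had 571, 572 and 566 FPKM in WT. It had 845, 656 and 817 FPKM in cKO. All cKO libraries were above WT, cKO 2 by 1.15-fold and cKO 1 and 3 by 1.48-fold and 1.43-fold over the WT mean. The log2 fold change was 0.43 (SE 0.123, 95% interval 0.14 to 0.72, adjusted p = 0.0180 from limma), but it was -0.13 at the same FPKM total and -0.20 under quantile normalization, so its direction depended on the scaling. Without any 1 WT library the adjusted p was 0.0660 to 0.0685, and it was no longer called.

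*Thy1* encodes the classical pan-T-cell antigen of the mouse. It measured 1251, 1244 and 1229 FPKM in WT and 2322, 1639 and 1995 in cKO. The WT values were within a few percent of each other, whereas the cKO libraries ranged from 1.32 to 1.87 times the WT mean and cKO 2 was again the lowest. The mean rose from 1242 to 1985 ± 342 FPKM (SD, n = 3), with a log2 fold change of 0.66 (SE 0.155, 95% interval 0.29 to 1.03, adjusted p = 0.00787 from limma). It was 0.10 at the same FPKM total and turned to -0.17 under quantile normalization, and its adjusted p was 0.228 when WT was entered as 1 averaged sample.

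*Cd24a*, the gene of heat-stable antigen, showed the smallest of the 5 called differences. Its levels were 259, 262 and 261 FPKM in WT and 307, 340 and 304 FPKM in cKO. The groups did not overlap, and here cKO 2 was the highest of the cKO libraries, the reverse of *Thy1* and *Ly6e*. The log2 fold change of 0.28 (SE 0.0776, 95% interval 0.097 to 0.46, adjusted p = 0.0157 from limma) was not kept when the libraries were scaled otherwise, with -0.28 at the same FPKM total, -0.23 under quantile normalization and -0.18 after adjustment for GC and length. It also lost its call without any 1 WT library (adjusted p 0.0721 to 0.0771 from limma).

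*Spn* encodes CD43, which extends far from the membrane and limits contact between T cells. It had 55.6, 56.3 and 58.3 FPKM in WT and 93.3, 70.2 and 91.5 FPKM in cKO. All cKO libraries were above WT, with cKO 2 the lowest at 1.24 times the WT mean. The mean went from 56.7 to 85.0 ± 12.8 FPKM (SD, n = 3), and the log2 fold change was 0.56 (SE 0.118, 95% interval 0.28 to 0.84, adjusted p = 0.00476 from limma). Its sign was positive in 16 of 16 other settings and it was called in 14, the exceptions being the same FPKM total (0.0091, adjusted p = 0.927) and WT entered as 1 averaged sample (adjusted p = 0.113).

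The 2 low genes did not separate the genotypes. *Ly6a*, the stem cell antigen Sca-1, had 3.01, 2.56 and 3.06 FPKM in WT and 3.04, 3.17 and 2.16 in cKO, which corresponds to an estimated 28 to 50 fragments per library and a counting error of 14.1% to 18.9%. Its log2 fold change was -0.042 (95% interval -0.34 to 0.26, adjusted p = 0.786 from limma), so differences within that interval were not excluded. *Ly6a* was called lower at the same FPKM total (-0.45, about the shift of the median gene) and after adjustment for GC and length (-0.65, adjusted p = 0.0182).

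*Ly6c1*, one of the genes of the Ly6C antigen of monocytes and memory T cells, had 2.416, 2.508 and 3.998 FPKM in WT and 1.605, 2.591 and 4.823 in cKO. The cKO libraries held both the lowest and the highest value, and the estimate of 14 to 54 fragments per library gives a counting error of up to 26.7%. The log2 fold change was -0.046 (95% interval -0.74 to 0.65, adjusted p = 0.897 from limma). Its copy *Ly6c2* had 4.13, 3.75 and 4.14 FPKM in WT and 0.403, 1.48 and 0.824 in cKO, without overlap, with a log2 fold change of -1.43 (SE 0.193, adjusted p = 0.000782 from limma). Because reads may have been divided between the copies, their FPKM were also added, a step chosen after seeing the data. The sum was 6.55, 6.26 and 8.14 in WT and 2.01, 4.07 and 5.65 in cKO, all cKO libraries below WT, with a log2 difference of -0.95 (exact two-sided permutation test, p = 0.1, the smallest that 3 against 3 libraries allow). Of 16 myeloid and dendritic cell genes, 8 passed the filter, of which 2 were higher (*Cst3*, 1.21, and *S100a8*, 0.86) and 0 lower. Their summed level was 144 to 148 FPKM in WT and 215 to 388 in cKO, most of it *Cst3*. In 3 of the genes that passed, all cKO libraries lay above all WT libraries, and in 0 all lay below. Of the 16 genes, 7 were under 1 FPKM in all libraries, *Csf1r*, *Itgax* and *Adgre1* among them. The part of such cells in the levels of *Ly6c1*, *Ly6c2* and *Ly6a* was not tested.

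**Figure D2:**
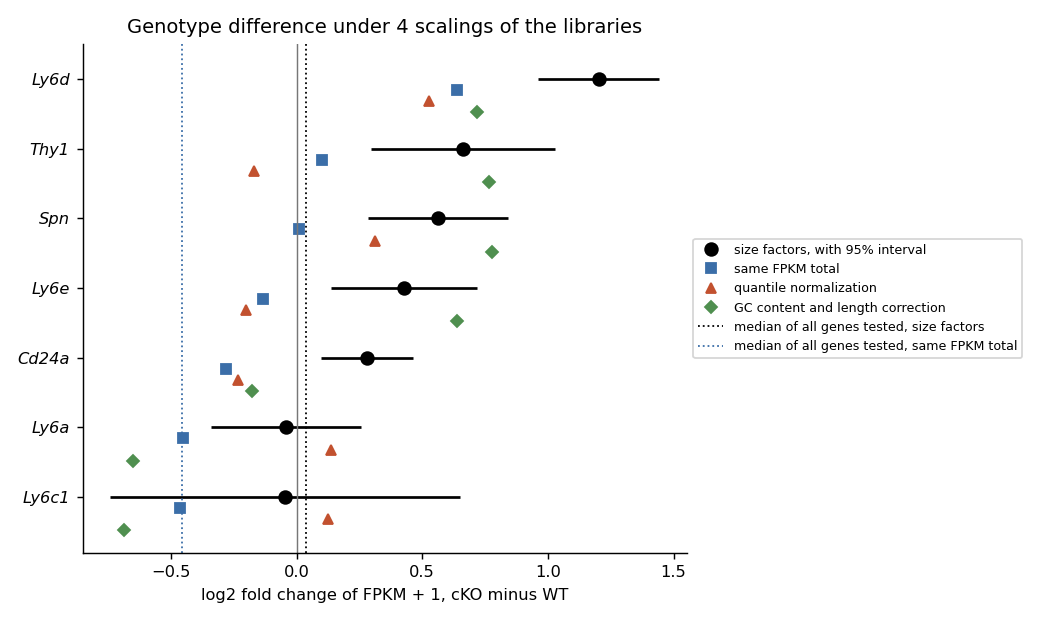
Log2 fold change (cKO minus WT) of each gene with libraries scaled by size factors (black, 95% interval), to the same FPKM total (blue), by quantile normalization (red) or after adjustment for GC and length (green), with dotted lines at the median of all genes. *Ly6d* stayed positive at 0.53 to 1.20, while *Cd24a* was positive only with size factors among these scalings and *Thy1* and *Ly6e* each turned negative in at least 1.

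A ratio of 2 genes within a library does not depend on how libraries are scaled to each other, and 7 pairs were compared in this way. The *Ly6d* to *Cd24a* ratio was 2.17, 2.20 and 2.04 in WT and 3.84, 3.86 and 4.46 in cKO. The *Ly6d* to *Ly6e* ratio was 0.982, 1.01 and 0.938 in WT and 1.40, 2.00 and 1.66 in cKO. In both, all cKO libraries lay above all WT libraries, so *Ly6d* differed by more than *Cd24a* and *Ly6e* in every cKO library. The *Ly6e* to *Thy1* ratio moved the other way, from 0.456 to 0.461 in WT to 0.364, 0.401 and 0.410 in cKO. Each of these 3 pairs reached p = 0.1 in the exact two-sided permutation test, the smallest p that the design allows, and 0.233 after adjustment over the 7 pairs, so none passed the threshold. The log2 difference of the *Ly6d* to *Ly6e* ratio was 0.77 and that of the *Ly6d* to *Cd24a* ratio 0.92. Adjusting each gene for GC and length left 0.076 of the former, so the gap between *Ly6d* and *Ly6e* was not kept under that adjustment. The genotypes overlapped in the ratios of *Cd24a* to *Thy1* (0.207 to 0.212 in WT and 0.132 to 0.208 in cKO), *Spn* to *Thy1*, *Ly6a* to *Ly6e* and *Ly6c1* to *Ly6e*. The *Spn* to *Thy1* ratio was 0.0445 to 0.0474 in WT and 0.0402 to 0.0459 in cKO (p = 0.3, adjusted p = 0.35, exact permutation test), which in a design of this size does not show that the proportion was the same.

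**Figure D3:**
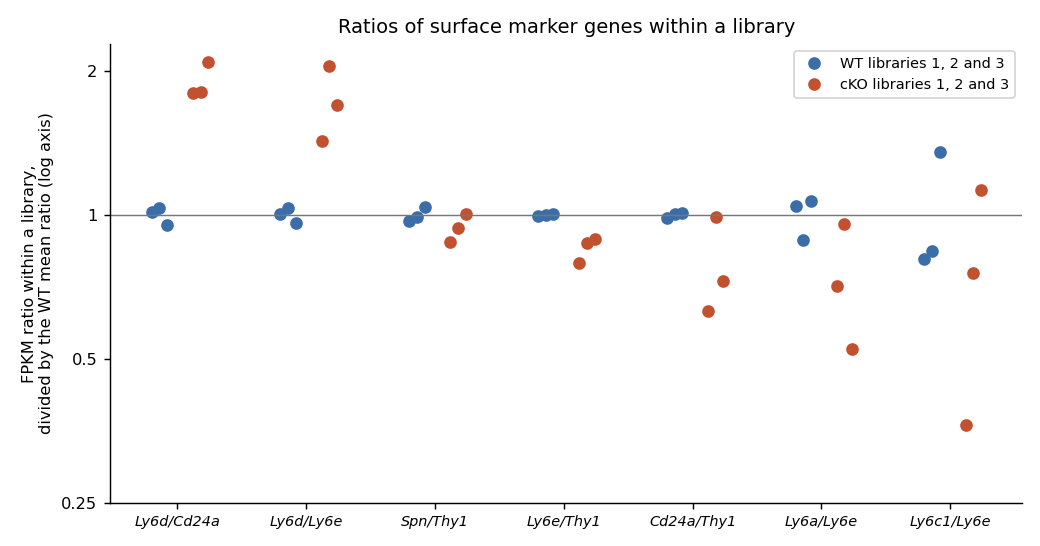
FPKM ratio of 2 genes within each library, divided by the WT mean ratio, on a log axis, for WT (blue) and cKO (red) libraries. *Ly6d* to *Cd24a* and *Ly6d* to *Ly6e* were higher in all cKO libraries, *Ly6e* to *Thy1* was lower in all of them, and the other 4 pairs overlapped.

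By pattern over the 6 libraries, the genes nearest to each gene of the set were found as the root mean square difference of log2(FPKM + 1) after removal of each gene's WT mean. This distance includes the size of the genotype difference and the order of the cKO libraries. Likeness in these therefore follows from the selection, and a link between the genes was not tested. *Kif20a* (0.041) and *Aurka* (0.064), a kinesin and a kinase of mitosis, were nearest to *Ly6d*. *Kif20a* had 14.4, 14.5 and 14.3 FPKM in WT and 32.9, 34.6 and 35.8 in cKO, with the same order of the 3 cKO libraries as *Ly6d*. *Thy1* was nearest to *Il16* (0.018), a cytokine precursor of lymphocytes, and *Cpsf3* (0.019), the endonuclease of mRNA 3′ end formation. The nearest genes of *Spn* were *Rab7* (0.019) and *Eif2ak1* (0.025), and those of *Ly6e* were *Hdgf* (0.015) and *Puf60* (0.024). *Cd24a* was nearest to *Fam175b* (0.023) and *Btg2* (0.028), an antiproliferative gene that was likewise highest in cKO 2, at 166 FPKM against 154 and 153. For *Ly6a* (*Mutyh*, 0.043, and *Gm14305*, 0.051) and *Ly6c1* (*Tnp2*, 0.14, and *Tmem35*, 0.20) the nearest genes were low like the genes themselves, and at such levels likeness is little more than counting noise.

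The 4 Ly6 genes of the set lie on chromosome 15 among other members of the family, and within 500000 bases of the outermost of them the files held 26 genes, of which 10 passed the filter. Genes of the region differed in both directions, with some that lay side by side called in the same direction. Whether neighbours change together was not tested. From one end to the other, *Arc* (-0.080, adjusted p = 0.403) did not pass the test, *Jrk* (-0.36, adjusted p = 0.0316) and *Them6* (-0.84, adjusted p = 0.000195) were lower, and *Lynx1* (0.54, adjusted p = 0.00204), *Ly6d*, *Ly6k* (0.59, adjusted p = 0.0041) and *Ly6e* were higher, all by limma and as log2 fold changes. Then came *Ly6a* and *Ly6c1*, which did not pass, and *Ly6c2*, which was lower. *Jrk* was at 1.33 to 1.52 FPKM in WT and 0.745 to 1.22 in cKO, so it passed the filter through WT, where it was high. *Lynx1* encodes a brake on nicotinic acetylcholine receptors and *Ly6k* a protein best known from testis and tumours. The log2 fold change of *Lynx1* was 0.062 at the same FPKM total (adjusted p = 0.567 from limma), and with WT entered as 1 averaged sample its adjusted p was 0.0797. *Ly6k* was at 45.7, 48.5 and 44.6 FPKM in WT and 70.0, 59.7 and 82.2 in cKO, above WT in every library, but its log2 fold change was 0.035 at the same FPKM total and 0.12 after adjustment for GC and length. Annotated transcripts of *Jrk* and *Them6* overlap a gene on the other strand, and whether strand was used in counting is not given in the sources used here.

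**Figure D4:**
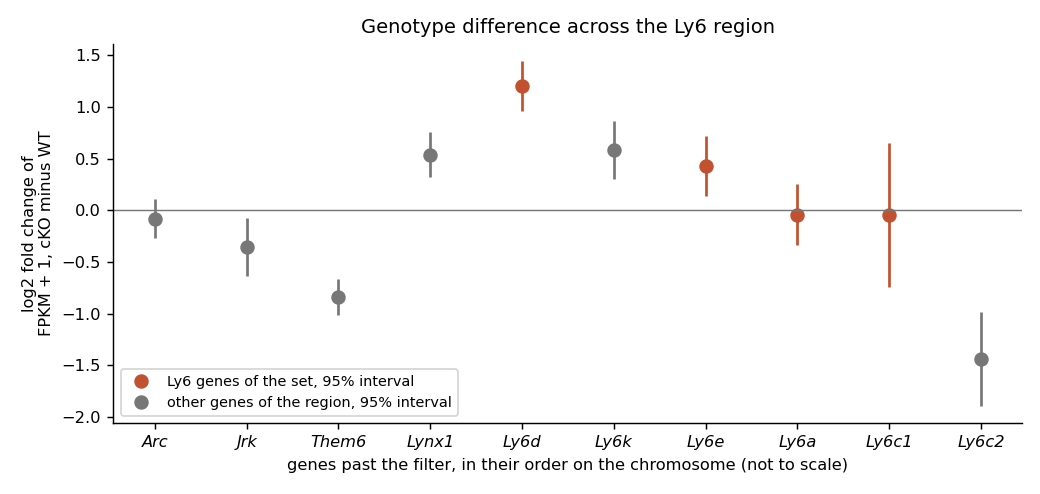
Log2 fold change (cKO minus WT) with 95% interval for the 10 genes of the Ly6 region that passed the filter, in chromosome order and not to scale, with the 4 Ly6 genes of the set in red. *Ly6d* was the highest at 1.20 and *Ly6c2* the lowest at -1.43, with *Ly6k* and *Ly6e* above 0 in between, although *Ly6e* fell below 0 at the same FPKM total.

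Of the Ly6/uPAR family outside the set, 27 genes were in the files. 12 of them were listed at 0 in every library and 5 passed the filter. Besides *Ly6c2*, *Lynx1* and *Ly6k*, these were *Ly6g5b*, which was lower (-0.61, adjusted p = 0.00341 from limma), and *Lypd6b* (-0.22, adjusted p = 0.0925), which did not pass although all cKO libraries lay below WT. The family held 2 genes called higher and 2 lower, with *Ly6k* higher in 13 of 16 other settings. Both lower genes passed the filter through WT, where they were high, and fell under 1 FPKM in at least 1 cKO library, so with a filter of 1 FPKM in all 6 libraries *Ly6c2* and *Ly6g5b* were not tested and 0 were lower. *Ly6c2* was lower in the 15 other settings that tested it. Of other GPI-anchored proteins of lymphocytes 9 passed the filter, of which 5 were lower and 2 higher, with a median of -0.23. With the filter on all 6 libraries 2 were lower and 2 higher, since *Cd160*, *Izumo1r* and *Gfra1* had passed through WT. *Sema7a*, a semaphorin, fell from 36.3 to 14.9 ± 5.65 FPKM (-1.28, adjusted p = 0.00176), and *Izumo1r*, the folate receptor 4 of regulatory and anergic T cells, from 4.04 to 1.19 ± 0.441 FPKM (-1.21, adjusted p = 0.000991). *Cd48*, the ligand of 2B4 and CD2, rose from 27.9 to 44.5 ± 3.00 FPKM (0.65, adjusted p = 0.000360), in each case by limma with n = 3.

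The machinery that makes and delivers the anchor showed no common direction. Of 24 genes of GPI synthesis and transfer that passed the filter, 8 were higher, 7 lower and 9 not called, with a median of 0.042 against 0.039 over all genes. *Dpm3*, a subunit of the enzyme that makes the mannose donor, rose (0.84, adjusted p = 0.000411 from limma), whereas the mannosyltransferase gene *Pigv* (-0.61, adjusted p = 0.000360) and the ethanolamine phosphate transferase gene *Pigo* (-0.73, adjusted p = 0.000612) fell. Of 10 genes of anchor remodelling and export, 4 were higher and 2 lower, but 0 were higher and 2 lower after adjustment for GC and length, and 2 higher and 1 lower under quantile normalization. With size factors the cargo receptor genes *Tmed9* (0.43, adjusted p = 0.0041) and *Tmed2* (0.39, adjusted p = 0.00756) rose and the coat gene *Sec24c* (-0.66, adjusted p = 0.00179) fell, again by limma. At the same FPKM total 13 genes of synthesis and transfer and 7 of remodelling and export were lower and 0 of either higher, as the median gene was lower.

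For CD43, the genes of its tail partners and relatives were mostly higher, 8 of 12 with 1 lower and a median of 0.32, which became -0.18 at the same FPKM total and 0.018 under quantile normalization. *Rdx*, the ERM protein radixin, went from 57.8 to 90.6 ± 4.71 FPKM (0.64, adjusted p = 0.000353 from limma), and *Icam2*, another ERM-bound adhesion molecule, from 80.9 to 122 ± 18.1 FPKM (0.58, adjusted p = 0.00424). *Stk10*, a kinase that activates ERM proteins, was the 1 lower gene (-0.78, adjusted p = 0.000242). Enzymes of the O-glycans carried by CD43 were lower in 8 and higher in 4 of 15, median -0.23. The median was -0.73 at the same FPKM total, where that of all genes was -0.45, and -0.13 under quantile normalization. After adjustment for GC and length it was -0.094, with 5 lower and 2 higher. The sialyltransferase gene *St3gal1* fell from 8.26 to 4.28 ± 0.370 FPKM (-0.81, adjusted p = 0.000259) and the sialidase gene *Neu1* from 10.4 to 5.59 ± 0.827 FPKM (-0.80, adjusted p = 0.000669). *C1galt1*, which makes the core 1 structure, rose from 50.3 to 73.9 ± 0.483 FPKM (0.55, adjusted p = 0.000453), all with n = 3 and by limma.

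The surface genes were set beside lists that mark the stages around DP. Of 15 immature DP genes that passed the filter, 9 were higher and 4 lower with a median of 0.40, beside 0.43 for the surface genes. At the same FPKM total the list had 2 higher and 6 lower with a median of -0.16, where the median of all genes was -0.45. Under quantile normalization it had 2 higher and 6 lower with a median of -0.040, against 0.029 over all genes. *Cd8a* (0.68, adjusted p = 0.00134), *Rag2* (0.56, adjusted p = 0.000618) and the channel gene *Aqp11* (0.48, adjusted p = 0.0014) rose by limma. Genes of selected and mature SP cells were lower in 18 and higher in 4 of 28, with a median of -0.71 that lay between -1.22 and -0.71 under each scaling. With the filter of 1 FPKM in all 6 libraries 15 were lower and 4 higher, and the 3 genes named next were then not tested. *Gimap3*, a GTPase of mature lymphocytes, fell from 10.9 to 1.09 ± 0.285 FPKM (-2.51, adjusted p = 4.48e-05), *Slfn1* from 5.80 to 0.600 ± 0.0630 FPKM (-2.08, adjusted p = 4.18e-05) and *S1pr1*, the receptor for thymic egress, from 4.50 to 0.179 ± 0.0397 FPKM (-2.21, adjusted p = 3.42e-05), all by limma with n = 3. *Ly6a* and *Ly6c1*, the 2 genes of the set known to rise with maturation, had log2 fold changes of -0.042 and -0.046 and did not pass the test. The 95% interval of *Ly6c1* (-0.74 to 0.65) holds the median of the SP list, so a fall of that size was not excluded for it. The interval of *Ly6a* (-0.34 to 0.26) does not hold that median. After adjustment for GC and length *Ly6a* and *Ly6c1* were at -0.65 (adjusted p = 0.0182) and -0.69 (adjusted p = 0.0674 from limma). At the same FPKM total they were at -0.45 and -0.46, about the shift of the median gene, and under quantile normalization at 0.14 and 0.13. The sum of *Ly6c1* and *Ly6c2* was lower in every cKO library, as given above. In the listed means this came from *Ly6c2* (4.01 FPKM in WT and 0.901 in cKO), with *Ly6c1* at 2.97 and 3.01. Of 12 DN stage genes 3 passed the filter, and *Notch1* (-0.97, adjusted p = 0.000159) and *Il2ra* (-0.45, adjusted p = 0.0114) were lower.

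**Figure D5:**
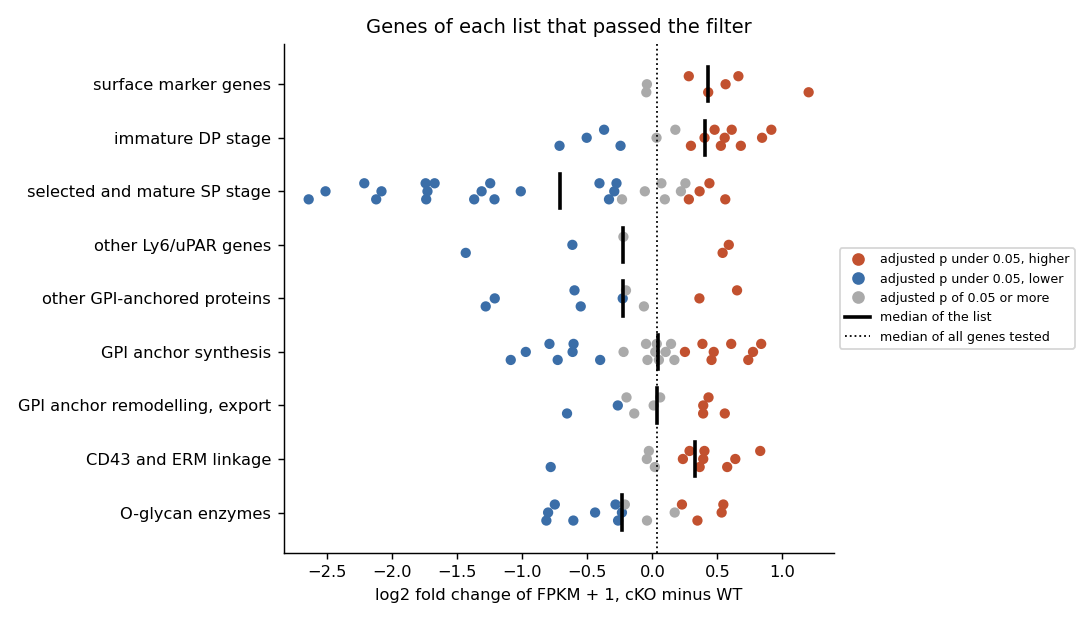
Log2 fold change (cKO minus WT) of the genes of each list that passed the filter, coloured by call, with a black bar at the list's median and a dotted line at the median of all genes tested (0.039). The surface marker and immature DP lists had medians of 0.43 and 0.40, and the SP list one of -0.71. At the same FPKM total the first 2 were below 0 (-0.13 and -0.16), where the median of all genes was -0.45. Under quantile normalization they were 0.13 and -0.040.

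Genes of other cell types and responses were read for the same libraries. Of 11 erythroid genes in the files 4 passed the filter and the globin genes *Hbb-b1* (2.39), *Hba-a1* (2.31) and *Hbb-b2* (1.75) were higher (1 with the filter on all 6 libraries). The list summed to 23.8 to 25.4 FPKM in WT and 41.9 to 48.2 in cKO, while *Slc4a1* was listed at 0 in every library. These globin means were 1.65, 0.659 and 0.158 FPKM in WT and 13.2, 7.95 and 3.14 in cKO, and 7 genes stayed under 1 FPKM throughout. Most of the WT sum was therefore the other gene that passed, which was not called (-0.24). Of 12 thymic epithelial genes 3 passed the filter and 0 were called by limma (1 at an unadjusted p under 0.05, *Cldn4*), with sums of 18.0 to 20.2 FPKM in WT and 18.7 to 20.6 in cKO and *Foxn1* and *Krt5* at 0 throughout. Of 14 endothelial and mesenchymal genes 2 passed and *Pecam1* (0.23), which T cells also express, was higher, with sums of 45.6 to 47.1 and 51.6 to 57.9 FPKM and *Tek* and *Col3a1* at 0. Of 10 NK, iNKT and gamma-delta T cell genes in the files 2 passed, *Il2rb* (-1.30) and *Nkg7* (-0.77), and both were lower (1 with the filter on all 6 libraries), with sums of 10.2 to 12.3 and 4.89 to 5.43 FPKM. Interferon response genes, among which *Ly6a*, *Ly6c1* and *Ly6e* are often counted, were higher in 6 and lower in 10 of 24 (median -0.058), led by *Irf9* (-1.18), *Irf7* (-1.14) and *Oas2* (-0.97). With the filter on all 6 libraries 6 were higher and 6 lower, since 4 of the lower genes, *Oas2* among them (1.06 to 1.23 FPKM in WT and 0.0614 to 0.143 in cKO), had passed through WT. The part of any of these in the levels of the surface genes was not tested.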

How the data were processed

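RNA of DP thymocytes was sequenced by the authors from a directional kit (NEBNext Ultra II), mapped to mm10 with TopHat and quantified with Cufflinks. The deposited values are FPKM per gene, normalized by the authors for transcript length and mapped fragments, so that no counts were available for a count test. The 6 libraries were grouped by genotype from their titles (3 WT, 3 cKO). FPKM were divided by median-of-ratios size factors (1.002 to 1.015), genes that reached 1 FPKM in 3 libraries were kept, and log2(FPKM + 1), with a pseudocount of 1, was fitted with limma 3.58.1 in R 4.3.3 (lmFit, eBayes with trend, two-sided, Benjamini-Hochberg over 10326 genes, threshold 0.05). A fold change on this scale understates that of low genes. The script was tested on simulated data. Depth was estimated from the steps of FPKM values that 1 fragment makes (79.9% to 84.4% of the low values used were near whole fragments), and the errors drawn from it cover counting only. Symbols were matched to GENCODE M21 (22110 by symbol and 664 by an older name).

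The genes and lists were chosen with earlier results of these data known. Named were all 7 genes, *Nsrp1*, other Ly6/uPAR genes and neighbours within 500000 bases of the Ly6 genes that passed the filter, of each other list the 3 called genes with the smallest adjusted p, and the 2 nearest patterns of each gene. Any other gene was chosen after its values were seen, among them *Cd4*, *Rag1*, *Csf1r*, *Itgax*, *Adgre1*, *Cd79a*, *Cldn4*, *Slc4a1*, *Foxn1*, *Krt5*, *Tek*, *Col3a1*, *Ddx3y* and *Xist*. Alternatives were another pseudocount, filters, scalings, no trend, a replicate block, WT as 1 sample, an adjustment for GC and length by splines, and leaving out each library.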

Additional observations from a re-analysis of the deposited data

How the results depend on the processing

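Only *Ly6d* was called, and in the same direction, in 16 of 16 alternatives (0.53 to 1.26 on the log2 scale, largest adjusted p 0.0455 from limma with WT entered as 1 averaged sample). Bringing all libraries to one FPKM total gave 902 genes higher and 6181 lower (3693 and 3073 with size factors), 1 gene of the set higher and 1 lower, and log2 fold changes of -0.28 for *Cd24a*, 0.10 for *Thy1*, 0.0091 for *Spn*, -0.13 for *Ly6e* and -0.45 for *Ly6a* (adjusted p = 0.0325). Quantile normalization gave -0.23 for *Cd24a*, -0.17 for *Thy1*, -0.20 for *Ly6e*, 0.14 for *Ly6a* and 0.13 for *Ly6c1*, with 2 genes of the set higher. Adjustment for GC and length gave -0.18 for *Cd24a* and -0.65 for *Ly6a*, 1 gene of the set lower, and log2 differences of the ratios of -0.94 for *Cd24a* to *Thy1*, 0.076 for *Ly6d* to *Ly6e*, -0.13 for *Ly6e* to *Thy1*, -1.29 for *Ly6a* to *Ly6e*, -1.33 for *Ly6c1* to *Ly6e* and 0.0092 for *Spn* to *Thy1*. With WT entered as 1 averaged sample, 739 genes were higher and 902 lower, 1 gene of the set was higher, and the log2 fold changes of *Cd24a* (0.28), *Thy1* (0.66), *Spn* (0.56) and *Ly6e* (0.43) had adjusted p-values of 0.366, 0.228, 0.113 and 0.304. The cause of these changes was not tested.

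Leaving out 1 library at a time gave 3 to 5 genes of the set higher, the 3 without any WT library, where *Cd24a* (0.23 to 0.31 over all 6) and *Ly6e* (0.36 to 0.55) lost their calls. *Ly6a* ranged from -0.11 to 0.083, above 0 without cKO 3, and *Ly6c1* from -0.36 to 0.22, above 0 without WT 3 (0.13) or cKO 1 (0.22). With the replicate number as a block, *Cd24a* (0.28) had an adjusted p of 0.0594, 3513 genes were higher and 2954 lower, and no other call in the set changed. Same-numbered libraries correlated at -0.022, 0.038 and 0.031 in their deviations from the group means, so they share only a number, and not every library correlated best with its own number. Depth limits *Ly6a* and *Ly6c1*, whose libraries held an estimated 14 to 54 fragments.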
